A study of Homo sapiens with 9 samples.

Results

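L363 and U266 are human plasma cell myeloma (PCM) lines, established from a plasma cell leukaemia (L363) and a myeloma (U266), and their arrays are compared here as L363 minus U266 over 22215 probe sets, all those of the array other than 68 controls. The comparison used 2 of the 9 Affymetrix Human Genome arrays of the series, on which 1 gene can be read by several probe sets. LP1, another myeloma line, had 1 array. The other 3 lines, labelled untreated, had 2 arrays each: Namalwa is a Burkitt lymphoma line, and SU-DHL4 and SU-DHL6 were derived from diffuse large B-cell lymphoma. All lines were grown in RPMI medium with fetal bovine serum, and total RNA was labelled with biotin. The labels name no treatment for L363, U266 or LP1, and each of the 3 lines is an established tumour line represented by 1 RNA preparation.

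With 1 array a line the difference between L363 and U266 has no replicate check of its own, and the differences below are given without a test. Values are RMA values on the log2 scale, on which a difference of 1 is 2-fold. A probe set was called higher or lower in L363 where the difference was at least 1 and was larger than the largest difference between the 2 arrays of Namalwa, of SU-DHL4 or of SU-DHL6 at that probe set. A gene was counted as agreed where 2 or more of its probe sets were called the same way and none the other way. RMA gives no detection call, so a low value is not read as absence, and fewer cells with a transcript cannot be told apart from less transcript per cell.

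Plasma cells end the B-cell lineage. They switch off much of the B-cell programme under the repressor PRDM1, raise IRF4 and XBP1, and carry SDC1 (CD138) and TNFRSF17 (BCMA) on their surface. Myeloma lines differ from each other mainly by the oncogene that a chromosome rearrangement puts under an immunoglobulin enhancer, such as CCND1, FGFR3 with NSD2, or MAF. MHC class II molecules present peptides to helper T cells. They are reduced in normal plasma cells.

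The label U266 was checked against the genes known for that line. U266 is known for high CCND1, the cyclin D1 gene, through an insertion of an immunoglobulin enhancer beside it. CCND1 read 4.89 in L363 and 4.93 in the array labelled U266 at 1 probe set, against 4.76 in LP1 and 4.65 to 4.89 in the 6 B-cell arrays. At its other probe set it read 6.19 in L363 and 6.02 in the array labelled U266, against 5.98 in LP1 and 5.71 to 6.11 in the B-cell arrays. CCND1 was thus not raised in the array labelled U266. IL6, a growth factor that U266 cells are known to make for themselves, read 5.14 in both arrays, against 5.11 in LP1 and 5.02 to 5.35 in the B-cell arrays. CCND2, the cyclin D2 gene, was high in both instead, at 11.06 in L363 and 11.55 in the array labelled U266, while the B-cell arrays had 5.38 to 5.49. The values of CCND1 and IL6 go against the label, so the second array is called the U266-labelled array below, and every direction given is a direction between these 2 arrays. Which line its RNA came from was not tested. IGHE, another gene known to mark U266, was not analysed here.

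SDC1, XBP1 and PRDM1 were at nearly the same level in both arrays, while TNFRSF17 and IRF4, given further on, were higher in L363 by 1.13 (called) and 0.60 (not called). SDC1 read 11.11 in L363 and 11.38 in the U266-labelled array. XBP1 read 11.35 in L363 and 11.36 in the U266-labelled array, and PRDM1 read 8.46 in L363 and 8.23 in the U266-labelled array. SDC1 in LP1 was 9.26, and the highest B-cell arrays had 7.18 for SDC1, 9.71 for XBP1 and 7.53 for PRDM1. Both arrays therefore carried the plasma cell genes their labels call for. CD38, a surface enzyme of plasma cells, was low in both (8.25 in L363 and 8.14 in the U266-labelled array) beside 11.05 in LP1 and 9.71 to 10.93 in the B-cell arrays. FGFR3 read 6.32 in L363 and 6.34 in the U266-labelled array and 8.48 in LP1, and MAF, a transcription factor that some myelomas overexpress, read 5.29 in L363, 5.30 in the U266-labelled array and 9.23 in LP1. MYC read 11.09 in L363 and 11.38 in the U266-labelled array. The oncogenes by which myeloma lines are usually told apart were thus at like levels in L363 and the U266-labelled array, while FGFR3 and MAF were higher in LP1.

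Over all probe sets the 2 arrays differed more than the duplicates of Namalwa and SU-DHL4 and less than those of SU-DHL6. The standard deviation of the L363 minus U266 difference was 0.32 (log2). Duplicate arrays gave 0.22 in Namalwa, 0.24 in SU-DHL4 and 0.35 in SU-DHL6, whose second array had a GAPDH 3-prime minus 5-prime difference of 0.44, against -0.09 to 0.07 in the other 8 arrays. The part of that array's RNA quality in the SU-DHL6 value was not tested. LP1 differed from L363 and from the U266-labelled array with a standard deviation of 0.55 each, different B-cell lines gave 0.47 to 0.56, and PCM against B-cell arrays 0.64 to 0.79. The median difference was 0.01, 91.2% of probe sets lay within 0.5 and 98.8% within 1.

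**Figure D1:**
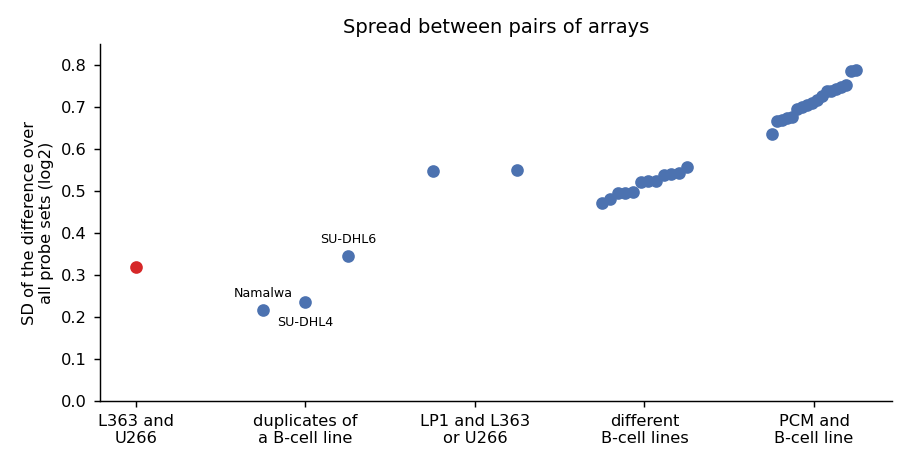
Standard deviation of the log2 difference over 22215 probe sets (vertical axis) for every pair of the 9 arrays, grouped by kind of pair; each point is 1 pair. L363 with the U266-labelled array (red) lies at 0.32, between the SU-DHL4 and SU-DHL6 duplicates and below every pair of different lines, the lowest of which is at 0.47.

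The likeness extended to probe sets at which both arrays stood well above all others. At 28 of 22215 probe sets both L363 and the U266-labelled array were at least 4-fold above all 7 other arrays, with a median absolute difference between them of 0.33. The same count was 17 for the Namalwa duplicates, 20 for SU-DHL4 and 8 for SU-DHL6. Among the 28 were cancer-testis genes, which healthy adult tissue outside the germ line keeps silent. MAGEA1 read 9.35 in L363 and 9.74 in the U266-labelled array, against 4.86 in LP1 and 4.69 to 4.83 in the B-cell arrays. MAGEA6 read 10.07 in L363 and 10.19 in the U266-labelled array, against at most 4.79 elsewhere. GULP1, an adaptor for the uptake of dying cells, read 8.63 in L363 and 8.90 in the U266-labelled array at its most distinct probe set, against at most 4.17 in the other 7. SPARC, a matrix protein, read 8.72 in L363 and 8.49 in the U266-labelled array, against at most 4.95. These genes were named after their values were seen, and probe sets of the MAGE family may hybridise to several members. Each B-cell pair was also set against the arrays of the other B-cell lines, while LP1 was the only other PCM array. The counts are therefore not like for like. By count, the 2 arrays shared more such upward probe sets than any duplicate pair, with GULP1 counted at several of them. They were not the same in all of them, since 8 further probe sets stood 4-fold apart upward in L363 alone and 25 in the U266-labelled array alone. For the first and second array of the duplicates these counts were 7 and 2 in Namalwa, 1 and 7 in SU-DHL4, and 4 and 18 in SU-DHL6. Downward the 2 arrays did not share the most. Both were at least 4-fold below all 7 others at 8 probe sets, against 3 for Namalwa, 13 for SU-DHL4 and 5 for SU-DHL6.

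Against that likeness, 264 probe sets (1.19% of 22215) were called, 61 higher in L363 (0.275%) and 203 lower (0.914%). The same rule, with each pair of duplicates set against the other pairs, called 57 probe sets in Namalwa (0.257%), 48 in SU-DHL4 (0.216%) and 415 in SU-DHL6 (1.87%). It called 1310 for LP1 minus L363 (5.90%), 1317 for LP1 minus the U266-labelled array (5.93%), and 983 to 1531 between arrays of different B-cell lines, taken with the same array number. These were 4.59% and 6.89% for SU-DHL6 minus SU-DHL4, 4.42% and 5.36% for Namalwa minus SU-DHL4, and 6.19% and 5.74% for Namalwa minus SU-DHL6. The count for L363 against the U266-labelled array was therefore above those of 2 duplicate pairs, below that of SU-DHL6, and below all pairs of different lines to which the rule was applied. Past 4-fold there were 40 probe sets here (7 higher, 33 lower), more than in any duplicate pair (1 to 35) and fewer than between any different lines (at least 180). Another 11 probe sets passed 2-fold but lay within the duplicate differences. Among these was S100A10, a partner of annexin A2, with a difference of 1.67 here and of -2.98 between the SU-DHL6 arrays.

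The called probe sets held 54 genes higher and 150 lower among probe sets with exactly 1 gene symbol, with none called both ways. Their median size was 2.32-fold for the higher and 2.40-fold for the lower ones. Agreement over probe sets was the exception. Of 4310 genes with 2 or more probe sets, 5 agreed as higher (0.116%) and 20 as lower (0.464%). Of 7653 genes with 1 probe set, 27 were higher (0.353%) and 58 lower (0.758%), and for these no second probe set exists. Another 22 genes were called higher and 72 lower at 1 of several probe sets. Another probe set of the gene had the same sign in 21 of the 22 and in 60 of the 72, and lay past 0.5 the same way in 8 and 31.

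**Figure D2:**
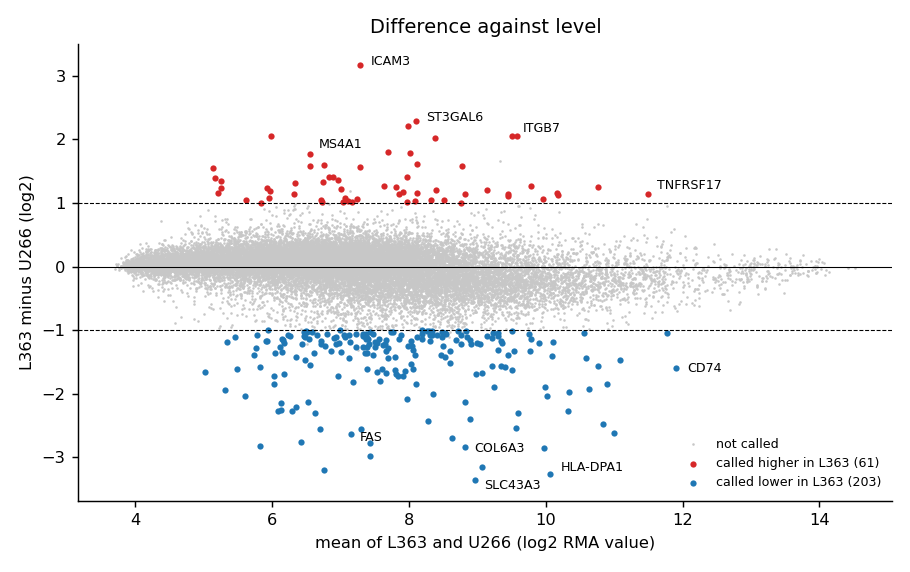
L363 minus U266-labelled array (log2, vertical axis) against the mean of both (log2 RMA value, horizontal axis) for each probe set; dashed lines mark 2-fold, red and blue points are the 61 probe sets called higher and the 203 called lower in L363. Most points lie between the dashed lines, the called points are mostly below, and grey points past a line lay within the duplicate differences.

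The agreed genes lower in L363 were led by SLC43A3, HLA-DPA1, FAS, CAV2, TUSC3, HLA-DRA, HLA-DQB1, IL21R, KCNK1, ADAM12, RORA and KDM5B. ID2, PALLD, CADM1, OSBPL1A, FGFR2, KPNB1, NFKB2 and NAP1L1 made up the 20. The agreed genes higher in L363 were ST3GAL6, MS4A1, CKAP4, ANXA2 and ALDH7A1. Every probe set of the gene was called in 9 of the 20 lower and 3 of the 5 higher genes. In FGFR2, a growth factor receptor, 2 of 10 were called, and in KPNB1, a nuclear import receptor, and NAP1L1, a histone chaperone, 2 of 6.

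**Figure D3:**
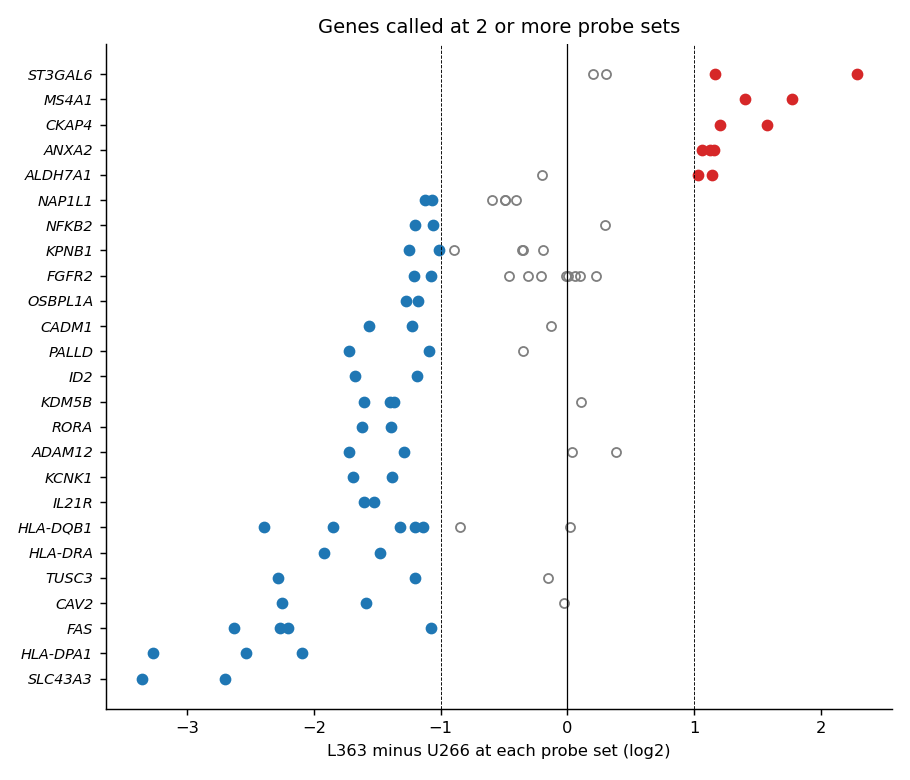
L363 minus U266-labelled array (log2, horizontal axis) at every probe set of the 5 genes agreed as higher (top) and the 20 agreed as lower; filled points were called, open points were not, and dashed lines mark 2-fold. SLC43A3, HLA-DPA1 and FAS have all their probe sets beyond -1, while FGFR2 and KPNB1 have most of theirs between the lines.

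Of the 30 gene lists, MHC class II held the most calls. Class II genes are switched on together by CIITA, which acts through proteins bound at X and Y boxes just upstream of their starts. The spacing and letters of these boxes vary from gene to gene. The following stretches, from 130 to 31 bases before the RefSeq start in GRCh38.p14, are shown because they are where such boxes are known to lie in genes of the list with the most calls. Capitals mark AGNNACNGA (X core) and ATTGG (Y core), which appears as CCAAT where it lies on the other strand, and the letters were chosen after reading these stretches. HLA-DOA, which did not differ, is shown last.
HLA-DRB1 (chr6:32589879-32589978, minus strand): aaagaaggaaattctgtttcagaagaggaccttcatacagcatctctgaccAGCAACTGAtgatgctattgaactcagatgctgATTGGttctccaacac
HLA-DMA (chr6:32953128-32953227, minus strand): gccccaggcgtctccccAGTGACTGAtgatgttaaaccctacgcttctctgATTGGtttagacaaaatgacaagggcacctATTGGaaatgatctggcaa
HLA-DQA1 (chr6:32637276-32637375, plus strand): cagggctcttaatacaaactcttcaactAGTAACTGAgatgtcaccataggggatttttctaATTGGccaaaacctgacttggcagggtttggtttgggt
HLA-DQB1 (chr6:32666688-32666787, minus strand): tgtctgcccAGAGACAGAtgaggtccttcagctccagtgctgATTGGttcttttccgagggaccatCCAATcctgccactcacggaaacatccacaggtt
HLA-DPA1 (chr6:33073680-33073779, minus strand): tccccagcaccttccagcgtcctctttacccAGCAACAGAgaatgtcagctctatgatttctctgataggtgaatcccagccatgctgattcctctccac
HLA-DPB1 (chr6:33075860-33075959, plus strand): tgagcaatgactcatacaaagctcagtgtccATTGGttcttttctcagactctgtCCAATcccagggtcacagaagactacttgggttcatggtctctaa
CD74 (chr5:150412941-150413040, minus strand): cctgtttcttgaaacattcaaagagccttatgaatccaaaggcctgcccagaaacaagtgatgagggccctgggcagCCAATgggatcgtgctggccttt
HLA-DOA (chr6:33009622-33009721, minus strand): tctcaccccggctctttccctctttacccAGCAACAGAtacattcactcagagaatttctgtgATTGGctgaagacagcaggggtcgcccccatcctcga

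The X core followed by the Y core 15 to 30 bases later, in that order and in either orientation of the whole pair, was in the 300-base promoters of HLA-DRB1, HLA-DMA, HLA-DQA1 and HLA-DQB1, which were all lower in L363, and of HLA-DOA, which was not. The pair is in 81 of 35116 RefSeq promoters (0.231%), while the X core alone is in 15.3% and the Y core alone in 34.6%. No pair with these letters was in the promoters of HLA-DPA1, HLA-DPB1 and CD74, nor in those of HLA-DMB and HLA-DOB. HLA-DRA, which was also lower, and CIITA had no entry among the promoters used and were not searched. A match is a description of the letters and says nothing of what was bound.

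In the class II list 8 of 12 genes were lower in L363 and none was higher, at the brightest probe set of each gene (66.7%, against 1.23% of all 11963 genes, of which 41, or 0.343%, were higher and 106, or 0.886%, lower). The median difference of the 12 was -1.37, against 0.01 over all genes. All gene lists were chosen with earlier results of these data known, so their shares are descriptions and no independent support. Counting every probe set of the group, those with several symbols included, 21 of 37 were lower and 0 higher, and they made up 10.3% of all lower calls. All class II calls were thus on 1 side.

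HLA-DPA1, the alpha chain of HLA-DP, read 8.42 in L363 and 11.69 in the U266-labelled array. LP1 had 11.88, and the B-cell arrays ranged from 9.61 to 12.30 with a median of 10.93. At this probe set L363 was below all 8 other arrays, by 3.27 (9.62-fold) against the U266-labelled array. The remaining probe sets of the gene gave -2.53 and -2.09, and at the last of these L363 (6.93) was above the SU-DHL4 arrays (6.51 and 6.60). HLA-DRB1, the main beta chain of HLA-DR, read 9.60 in L363 and 12.08 in the U266-labelled array, with 12.14 in LP1 and 11.07 to 12.38 (median 11.33) in the B-cell arrays. Its probe set is of the _x_at type and may read related DRB genes. HLA-DRA, the alpha chain of HLA-DR, which varies little between people, read 10.34 in L363 and 11.82 in the U266-labelled array, and 9.67 in L363 and 11.60 in the U266-labelled array at its other probe set. LP1 had 12.62 and 12.39, and the B-cell arrays had 11.28 to 12.27 (median 11.74) and 11.20 to 12.30 (median 11.66). At both probe sets L363 was the lowest of the 9 arrays.

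The genes that load class II molecules were lower as well. CD74, the invariant chain that guards the peptide groove, read 11.10 in L363 and 12.70 in the U266-labelled array, with 12.42 in LP1 and 12.51 to 12.94 (median 12.68) in the B-cell arrays. HLA-DMA, a chain of the peptide exchanger HLA-DM, read 8.30 in L363 and 10.20 in the U266-labelled array, with 10.68 in LP1 and 9.05 to 11.15 (median 9.75) in the B-cell arrays. For both, L363 was again below all 8 other arrays, by 1.60 and 1.90 against the U266-labelled array. Its partner HLA-DMB read 8.23 in L363 and 9.11 in the U266-labelled array, a difference of -0.87 that was not called, although L363 was the lowest array here too.

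HLA-DPB1 read 8.43 in L363 and 9.99 in the U266-labelled array (difference -1.56), with 10.83 in LP1 and 9.88 to 11.30 in the B-cell arrays, so L363 was the lowest of the 9. For HLA-DQA1 and HLA-DQB1, the chains of HLA-DQ, L363 was lower than the U266-labelled array but not the lowest of all. HLA-DQA1 read 6.60 in L363 and 7.86 in the U266-labelled array, with 5.51 in LP1 and 8.20 to 9.79 in the B-cell arrays. HLA-DQB1 read 9.30 in L363 and 10.50 in the U266-labelled array at its brightest probe set, with 10.70 in LP1 and 8.73 to 11.06 in the B-cell arrays. Of the 7 probe sets of HLA-DQB1, 5 were called lower, with differences from -1.14 to -2.39.

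HLA-DOB, HLA-DOA and CIITA were not called. HLA-DOB and HLA-DOA, the chains of HLA-DO, a brake on HLA-DM, differed by 0.27 and 0.17. CIITA read 7.69 in L363 and 7.65 in the U266-labelled array, with 7.56 in LP1 and 7.27 to 7.56 in the B-cell arrays. Its brightest probe set thus stayed in a narrow range in all 9 arrays, also where class II genes were high. L363 had the highest of these CIITA values, so the probe set did not follow the class II genes. Whether it reads CIITA RNA well was not tested, and equal CIITA RNA cannot be concluded from it. Seen from the other arrays, the U266-labelled array was the usual one: its value lay within the range of the other 7 in all 8 called genes, and L363 was below all 8 others in 6 of them. MHC class I and its peptide supply held no called gene among 14 (beside 1.23% of all genes). The median was -0.34, or -0.19 after a second quantile normalization, and 13 of 14 were negative. The largest differences there were -0.99 in PSMB8, an immunoproteasome subunit (8.21 in L363 and 9.21 in the U266-labelled array), and -0.56 in TAP1, a chain of the peptide transporter (8.24 in L363 and 8.81 in the U266-labelled array).

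**Figure D4:**
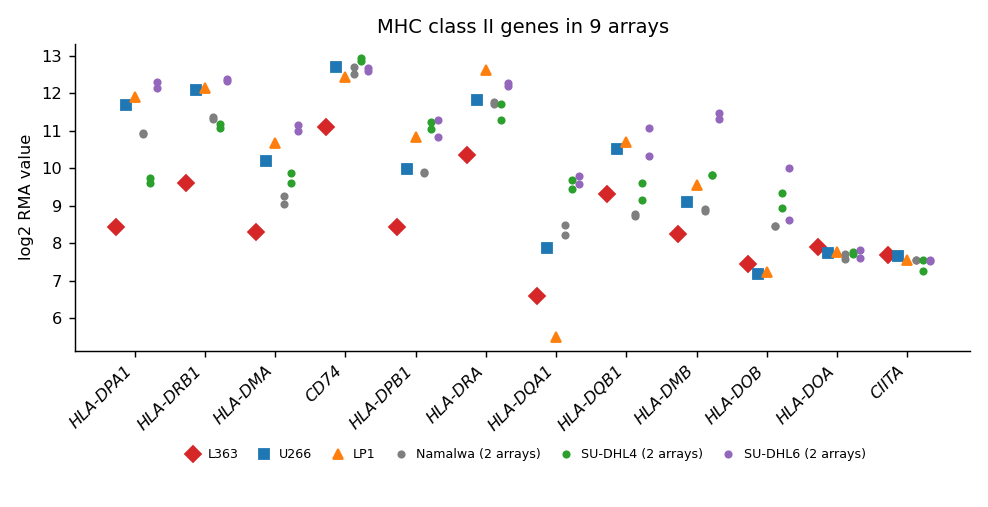
log2 RMA value (vertical axis) of 12 MHC class II genes at their brightest probe set in all 9 arrays; diamonds are L363, squares the U266-labelled array, triangles LP1 and dots the 2 arrays of each B-cell line. From HLA-DPA1 to HLA-DRA the L363 diamond lies below every other point, while the U266-labelled array lies among LP1 and the B-cell arrays.

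ST3GAL6 and CADM1, given as markers of the comparison, differed in opposite directions. ST3GAL6, a sialyltransferase that helps build the sialyl Lewis x ligand of selectins, read 9.24 in L363 and 6.96 in the U266-labelled array at its brightest probe set, and 8.50 in L363 and 7.33 in the U266-labelled array at the next. LP1 had 9.66 and 8.81, near L363, and all B-cell arrays lay between 4.38 and 4.51 at both. The differences were 2.28 (4.86-fold) and 1.17, and the 2 remaining probe sets, which read under 7 everywhere, gave 0.30 and 0.20. Of 21 sialyl- and fucosyltransferase genes, ST3GAL6 alone was called (4.76%, beside 1.23% of all genes). CADM1, a cell adhesion molecule of the immunoglobulin superfamily, read 8.56 in L363 and 10.12 in the U266-labelled array, and 8.42 in L363 and 9.65 in the U266-labelled array at its second probe set. LP1 had 11.23 and 10.52, nearer to the U266-labelled array, and the B-cell arrays had 5.35 to 6.11 (median 5.79) and 6.32 to 6.84 (median 6.69). The differences were -1.56 and -1.22, with -0.13 at the remaining probe set. At their called probe sets both markers were above all B-cell arrays in L363 and in the U266-labelled array.

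Other adhesion genes were called in both directions. In the adhesion list 2 of 24 genes were higher in L363 and 3 lower (20.8%, beside 1.23% of all genes), and the list's median was 0.00. ICAM3, a leukocyte ligand of the integrin LFA-1, read 8.87 in L363 and 5.70 in the U266-labelled array. LP1 had 5.36 and the B-cell arrays 8.87 to 9.45 (median 9.13), so L363 was at the B-cell level and the U266-labelled array at that of LP1. The difference of 3.17 (9.02-fold) was the largest higher one of all probe sets. ITGB7, an integrin chain for homing to the gut and a target of MAF, read 10.54 in L363 and 8.48 in the U266-labelled array, with 11.47 in LP1 and 7.41 to 9.84 (median 9.38) in the B-cell arrays. Here L363 stood with LP1. Each of the 2 genes has 1 probe set.

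CDH1, E-cadherin, went the other way, with 5.43 in L363 and 7.98 in the U266-labelled array, and with 4.54 in LP1 and 4.14 to 4.54 in the B-cell arrays. Its second probe set gave 5.87 in L363 and 6.43 in the U266-labelled array, a difference of -0.56. CDH1 was the only one of 20 epithelial, fibroblast and endothelial markers called at the brightest probe set (5%, beside 1.23% of all genes). The median level of that list was 6.65 in L363 and 6.93 in the U266-labelled array, with 6.58 in LP1 and 6.38 to 6.70 in the B-cell arrays. CD9, a tetraspanin, read 5.65 in L363 and 7.06 in the U266-labelled array, with 5.70 in LP1 and 5.63 to 9.61 in the B-cell arrays. In both genes L363 was nearer to LP1 than the U266-labelled array was. Outside the list, COL6A3, a chain of collagen VI, read 7.41 in L363 and 10.24 in the U266-labelled array (LP1 6.27, B-cell arrays 6.34 to 6.61). ADAM12, a metalloprotease, read 5.16 in L363 and 6.89 in the U266-labelled array and was called at 2 of 4 probe sets. Its brightest probe set went the other way, with 8.05 in L363 and 7.67 in the U266-labelled array (0.38), and the remaining one gave 0.04, both not called. CAV2, caveolin 2, read 5.01 in L363 and 7.27 in the U266-labelled array, with 5.81 in LP1 and at most 4.13 in the B-cell arrays, and was called at 2 of 3.

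Among 21 plasma cell genes, 3 were higher in L363 and 1 lower (19.0%, beside 0.343% higher and 0.886% lower of all genes), with a median of 0.03, or 0.22 after a second quantile normalization. TNFRSF17, a survival receptor of plasma cells, read 12.06 in L363 and 10.93 in the U266-labelled array, with 11.32 in LP1 and 8.0 to 10.21 in the B-cell arrays. POU2AF1, the coactivator of octamer factors, read 11.40 in L363 and 10.14 in the U266-labelled array. LP1 had 11.06 and the B-cell arrays 10.91 to 11.75, so the U266-labelled array was the lowest of the 9. SLAMF7, a surface receptor used as an antibody target in myeloma, read 8.70 in L363 and 7.54 in the U266-labelled array, with 8.13 in LP1 and 5.05 to 5.48 in the B-cell arrays. The lower gene was CD9, given above. IRF4 read 12.17 in L363 and 11.58 in the U266-labelled array, a difference of 0.60 that was not called but exceeded the duplicate differences, of which the largest was 0.36. Each of the 3 called genes has 1 probe set and differed by 1.13 to 1.26, close to the threshold.

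MS4A1, the CD20 gene, was higher in L363 at both of its probe sets, and both values were far under those of B-cell lines. It read 7.54 in L363 and 6.14 in the U266-labelled array, and 7.44 in L363 and 5.67 in the U266-labelled array at the other probe set, with 6.20 and 5.59 in LP1. The B-cell arrays had 10.96 to 12.67 (median 12.33) and 10.63 to 12.46 (median 12.10). CD79B, a chain of the B-cell receptor, read 7.67 in L363 and 6.66 in the U266-labelled array, with 7.51 in LP1 and 9.94 to 10.96 in the B-cell arrays. In the B-cell identity list these 2 of 26 genes were higher and CD74 lower (11.5%, beside 0.343% higher and 0.886% lower of all genes), 19 differences were positive and the median was 0.08, or 0.13 after a second quantile normalization. ID3, an inhibitor of E proteins, read 9.40 in L363 and 7.37 in the U266-labelled array, with 6.75 in LP1 and 9.13 to 11.63 in the B-cell arrays. EAF2, a partner of an elongation factor, read 8.91 in L363 and 7.12 in the U266-labelled array, with 9.23 in LP1 and 8.94 to 10.68 in the B-cell arrays. ID2, a relative of ID3, had the opposite direction and agreed over 2 probe sets, at 8.24 in L363 and 9.91 in the U266-labelled array, with 9.77 in LP1 and at most 7.94 in the B-cell arrays. Myeloid and erythroid marker lists held no call among 15 and 13 genes (beside 1.23% of all genes). T and NK cell markers held none among 19 at the brightest probe set, with 17 of 19 positive and a median of 0.21. CD28, a member of that list, was called lower at another probe set, with 6.33 in L363 and 7.68 in the U266-labelled array. Its remaining probe sets gave -0.71 and -0.55 and were not called.

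**Figure D5:**
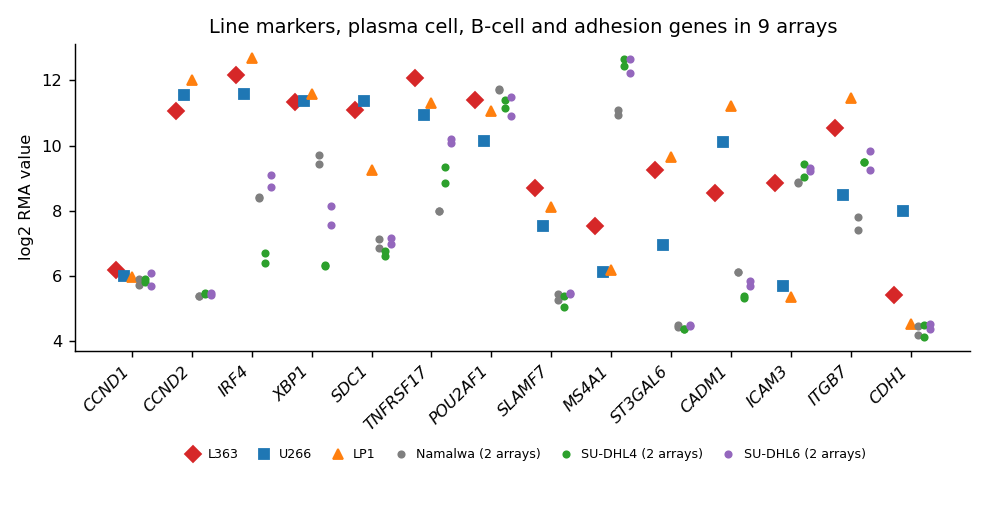
log2 RMA value (vertical axis) of 14 genes at their brightest probe set in all 9 arrays; symbols stand for the same arrays as in the class II plot. CCND1 is at a low level everywhere, XBP1 and SDC1 nearly coincide in L363 and the U266-labelled array, and ST3GAL6, ICAM3, ITGB7 and CDH1 do not.

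FAS, the death receptor, was lower in L363 at all 4 of its probe sets. The brightest read 5.84 in L363 and 8.47 in the U266-labelled array, with 8.13 in LP1 and 5.45 to 7.01 (median 6.48) in the B-cell arrays. The 4 differences were -2.63 (6.19-fold), -2.27, -2.20 and -1.07. L363 was in the range of the B-cell arrays, and the U266-labelled array was above all of them beside LP1. PMAIP1 (NOXA) and BAX, both promoters of mitochondrial cell death, were also lower. PMAIP1 read 6.27 in L363 and 8.09 in the U266-labelled array, with 9.01 in LP1 and 9.26 to 11.23 in the B-cell arrays. Its second probe set differed by -1.19 but by up to 2.02 between duplicates, so it was not called. BAX read 6.75 in L363 and 8.02 in the U266-labelled array, with 7.40 in LP1 and 7.99 to 9.06 in the B-cell arrays, and its second probe set gave -0.63, within the duplicate differences. These were the 3 calls among 23 apoptosis genes, all lower (beside 0.886% of all genes lower), with a list median of -0.18, or -0.05 after a second quantile normalization. When the mean over the probe sets of each gene was used, 1 of the 3 was called.

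NFKB2, the precursor of the non-canonical NF-kB pathway, read 8.01 in L363 and 9.08 in the U266-labelled array, and 6.93 in L363 and 8.13 in the U266-labelled array at a second probe set, with 8.39 and 7.53 in LP1. It was the only one of 20 NF-kB genes called (5%, beside 1.23% of all genes), and the list's median was -0.03. IL21R, the receptor of interleukin 21, was lower at both probe sets, with 7.26 in L363 and 8.79 in the U266-labelled array at the brighter, against 5.80 in LP1 and 7.28 to 8.32 in the B-cell arrays. It was the only one of 22 IL6 and JAK-STAT genes called (4.55%, beside 1.23% of all genes). IL6ST, the shared signalling chain gp130, read 7.09 in L363 and 8.07 in the U266-labelled array at its brightest probe set, with 10.15 in LP1, but its remaining 4 probe sets gave -0.12 to 0.35. IL6R, the receptor chain for interleukin 6, differed the other way by 0.83, with 6.68 in L363 and 5.85 in the U266-labelled array, and with 9.15 in LP1. Neither of these last genes was called.

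Stress gene lists had negative medians and few calls. HMOX1, heme oxygenase, read 7.78 in L363 and 9.17 in the U266-labelled array, with 7.81 in LP1 and 6.62 to 7.95 in the B-cell arrays. It was the single call among 18 metallothionein and oxidative stress genes (5.56%, beside 1.23% of all genes). Of the 18, 16 were negative, with a median of -0.34. DNAJB1, a cochaperone, read 8.78 in L363 and 9.83 in the U266-labelled array, with 8.17 in LP1. It was the single call among 15 heat shock genes (6.67%, beside 1.23% of all genes), whose median was also -0.34. These medians moved with level: the brightest 5554 of all probe sets had a median difference of -0.16, and the 3 dimmer classes of like size had 0.05, 0.07 and 0.02. After a second quantile normalization the brightest class was at 0.00 and the list medians at -0.17 and -0.11. DUSP1, a phosphatase of MAP kinases, read 6.99 in L363 and 8.61 in the U266-labelled array, with 8.99 in LP1 and 6.40 to 7.42 in the B-cell arrays, and its second probe set gave -0.33, which was not called. KLF6, a stress-induced transcription factor, read 7.28 in L363 and 8.43 in the U266-labelled array, with 8.25 in LP1 and at most 6.90 in the B-cell arrays, but its remaining probe sets gave -0.87 and 0.63 and were not called. Other members of the list of DUSP1 went the other way. DUSP4 was called higher at 1 probe set (1.04) and gave 0.70 at its brightest, and ZFP36 gave 0.90, both not called. At the brightest probe set DUSP1 was the single call among 25 immediate early and stress genes (4%, beside 1.23% of all genes). Of the 25, 11 were positive and 14 negative, with a median of -0.01.

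The largest agreed difference of all was in SLC43A3, a transporter of purine bases. It read 7.28 in L363 and 10.64 in the U266-labelled array, and 7.28 in L363 and 9.98 in the U266-labelled array at its other probe set. LP1 had 7.44 and 7.55, and the B-cell arrays 10.12 to 10.33 (median 10.16) and 8.78 to 9.98 (median 9.80). L363 was at the level of LP1 and the U266-labelled array at that of the B-cell lines, and the 2 arrays differed 10.2-fold at the first probe set. LSP1, an actin-binding protein of lymphocytes, had the same arrangement, with 7.76 in L363 and 9.89 in the U266-labelled array, 7.73 in LP1 and 9.56 to 10.66 in the B-cell arrays. TUBB2A, a beta tubulin, read 5.48 in L363 and 7.79 in the U266-labelled array, with 5.62 in LP1 and 8.0 to 11.22 in the B-cell arrays. TUBB2B gave -2.13, and the probe sets of these near-identical genes may share transcripts.

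Other agreed lower genes had their highest value of the 9 arrays in the U266-labelled array. TUSC3, a subunit of the oligosaccharyltransferase complex, read 5.16 in L363 and 7.44 in the U266-labelled array, with 5.15 in LP1 and at most 5.31 in the B-cell arrays. KCNK1, a potassium channel, read 7.40 in L363 and 8.79 in the U266-labelled array at the brighter of 2 called probe sets, with 6.41 in LP1 and at most 6.55 in the B-cell arrays. PALLD, an actin scaffold, read 6.10 in L363 and 7.82 in the U266-labelled array, with 5.84 in LP1 and at most 5.42 in the B-cell arrays. OSBPL1A, an oxysterol-binding protein, read 6.69 in L363 and 7.96 in the U266-labelled array, with 5.99 in LP1 and at most 5.25 in the B-cell arrays. In KCNK1, PALLD and OSBPL1A the value of L363 also lay above LP1 and the B-cell arrays.

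In RORA, a nuclear receptor, and KDM5B, a histone demethylase, the U266-labelled array stood with LP1. RORA read 5.04 in L363 and 6.43 in the U266-labelled array at the brighter of its 2 called probe sets, with 6.85 in LP1 and at most 4.97 in the B-cell arrays. KDM5B read 6.78 in L363 and 8.18 in the U266-labelled array, with 7.93 in LP1 and at most 6.33 in the B-cell arrays, and 3 of its 4 probe sets were called. AUTS2, a gene of Polycomb-associated transcription, read 5.05 in L363 and 7.81 in the U266-labelled array, with 10.76 in LP1 and 8.26 to 9.42 in the B-cell arrays. L363 was the only array with a low AUTS2 value. SGMS1, a sphingomyelin synthase, read 4.59 in L363 and 6.62 in the U266-labelled array, and TMEM255A read 5.94 in L363 and 8.92 in the U266-labelled array. For both, LP1 and the B-cell arrays were at or below 5.62, so the U266-labelled array stood out.

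The remaining genes higher in L363 were of mixed kinds. CKAP4, a membrane protein of the endoplasmic reticulum, read 9.57 in L363 and 7.99 in the U266-labelled array, with 8.70 in LP1 and 6.20 to 8.26 in the B-cell arrays, and its second probe set differed by 1.20. ANXA2, annexin A2, gave 1.06, 1.12 and 1.15 at its 3 probe sets, with 10.75 in L363 and 9.62 in the U266-labelled array at the brightest and 12.08 in LP1. ALDH7A1, an aldehyde dehydrogenase of lysine breakdown, read 9.40 in L363 and 8.26 in the U266-labelled array, with 7.38 in LP1 and at most 6.84 in the B-cell arrays, and was called at 2 of 3 probe sets. L363 was thus the highest array for CKAP4 and ALDH7A1, but not for ANXA2.

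QPCT, glutaminyl cyclase, read 10.61 in L363 and 8.55 in the U266-labelled array, with 4.79 in LP1 and 5.10 to 6.77 in the B-cell arrays. CTNNA2, an alpha catenin, read 8.59 in L363 and 6.79 in the U266-labelled array, with 5.05 in LP1 and at most 5.19 in the B-cell arrays. Both genes were raised in the 2 arrays over all others, and further in L363. MEST, an imprinted gene, read 9.09 in L363 and 6.88 in the U266-labelled array, with 8.20 in LP1 and 7.26 to 10.12 in the B-cell arrays, so the U266-labelled array was the lowest. BEX3 read 8.93 in L363 and 7.32 in the U266-labelled array, with 11.32 in LP1 and 7.12 to 7.89 in the B-cell arrays.

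Most gene lists showed no difference past the rule. Of 30 lists, 16 held no called gene at the brightest probe set, and the median of 1 list, MHC class II, passed 0.5 in size. Over all 11963 genes the share called was 1.23%, so lists of this length can hold no call without differing from it. There was no call among 32 cell division genes (median -0.20, or -0.01 after a second quantile normalization), 26 unfolded protein response genes (0.00), 30 interferon response genes (0.06), 9 immunoglobulin genes (0.24), 19 genes of the D cyclins and the G1 gate (-0.10) or 20 cancer-testis genes (-0.07). In the last list CTAG2 was called lower at its second probe set, with 7.06 in L363 and 8.77 in the U266-labelled array, while its brightest read 10.98 in L363 and 11.27 in the U266-labelled array. Among 13 myeloma translocation targets ITGB7 alone was called (7.69%, beside 1.23% of all genes). In lists this short, a single call says little about the list.

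The other arrays did not put either line on 1 side. LP1 was nearer to L363 at 34 of the 61 higher and 102 of the 203 lower probe sets, and nearer to the U266-labelled array at 27 and 101. Among the 61 higher, L363 alone lay outside the range of the other 7 arrays at 16, the U266-labelled array alone at 7, both at 15 and neither at 23. Among the 203 lower, the counts were 62, 45, 54 and 42 in the same order. The lower calls were thus shared between probe sets at which L363 was unusually low and ones at which the U266-labelled array was unusually high.

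Over the chromosomes the median differences were small. Medians of the genes of each autosome lay between -0.04 and 0.08 for L363 minus the U266-labelled array, against -0.20 to 0.07 for LP1 minus L363. Medians over 222 windows of 50 neighbouring genes had a standard deviation of 0.0565, against 0.0305 to 0.0619 in the 3 duplicate pairs, 0.0747 for the first SU-DHL6 array minus the first SU-DHL4 array and 0.119 for LP1 minus L363. By this measure regional shifts between the 2 arrays were larger than in the Namalwa and SU-DHL4 duplicates and smaller than in those of SU-DHL6. The highest autosome median, 0.075 on chromosome 3, was above the highest of each duplicate pair (0.030 in Namalwa, 0.059 in SU-DHL4 and 0.062 in SU-DHL6). The lowest, -0.036, lay between those of Namalwa (-0.016) and SU-DHL4 (-0.014) and that of SU-DHL6 (-0.079). Chromosome 6, which carries the HLA genes of the class II list, held 20 lower and 2 higher genes among 673. This was 3.27%, beside 1.23% of all genes and 0% to 1.97% on the other autosomes. The called HLA genes of the class II list are among these lower genes, so the share in part repeats the class II result. The share without them was not worked out.

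The duplicates of SU-DHL6, the widest of the 3 pairs, give the size of a difference between arrays of 1 line. They share no array with L363 or the U266-labelled array. Of the 275 probe sets past 2-fold here, 20 were also past 2-fold there (7.27% of the 275 and 4.73% of the 423 of SU-DHL6, beside 1.90% and 1.24% of all probe sets), 11 with the same sign of first minus second array. The 3-prime minus 5-prime control difference of GAPDH, a measure of RNA integrity, was -0.09 in L363 and -0.09 in the U266-labelled array. For ACTB it was -0.60 in L363 and -0.56 in the U266-labelled array. RNA integrity by these controls was therefore alike in the 2 arrays compared, and unlike in the SU-DHL6 pair.

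The threshold passed through a continuous range of values. Just inside it were MEF2C (1.005), PPIC (1.005), RBM25 (-1.0005) and LPIN1 (-1.002). Just outside were CD22 (0.994), LZTFL1 (0.992), FYN (-0.997) and HSPA9 (-0.996).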

How the data were processed

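The authors deposited 1 table of log2 values for 9 arrays, made by RMA per the submitters' processing notes. Sources used here do not give the RMA version or say whether the arrays were normalized in 1 run. The 22283 probe sets less 68 controls left 22215. Array medians were 6.95 to 7.04, and array number limits precision. A second deposited table of PCM against B-cell statistics was not used here. Symbols came from the platform annotation: 19065 probe sets had 1 symbol (19053 matched RefSeq), 1043 several and 2107 none, and only the first kind was named.

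Differences were taken without further normalization in Python 3.11.15. The call rule was checked on simulated data. Genes were named by rule: per direction the 12 agreed genes with the largest mean difference, the 8 largest of genes with 1 probe set, 19 line and plasma cell genes (17 measured), and up to 4 members per list described; other genes are said to have been chosen after their values were seen, or complete a count. Lists were read at the probe set brightest in L363 and U266. The members and lists were chosen with earlier results of these data known. Promoters came from RefSeq (GRCh38.p14). Alternatives included other thresholds, normalizations and filters, and limma 3.58.1 (R 4.3.3) with line as a factor.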

Additional observations from a re-analysis of the deposited data

How the results depend on the processing

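No paired analysis was possible because the result comes from no test and L363 and U266 have 1 array each. Of the alternatives run, none turned the direction of a called result. At 4-fold, 7 probe sets were higher and 33 lower in L363, with 0 and 3 agreed genes; at 1.5-fold the counts were 256, 881, 21 and 77. Probe sets above the median level held 38 higher calls and 13 agreed lower genes. Without _x_at and _s_at probe sets there were 29 higher, 87 lower, 0 agreed higher and 2 agreed lower. A limma fit with line as a factor, whose spread comes from the B-cell duplicates (3 residual degrees of freedom) and which assumes that the lone L363 and U266 arrays vary like them, called 10 higher and 41 lower at an adjusted p under 0.05, all among the 264, with 1 and 3 agreed genes. These counts fall or grow by construction of the threshold, filter or test. Apoptosis calls were 1 with the mean over the probe sets of a gene; the cause was not tested. Leaving out 1 duplicate pair at a time gave 61 to 63 higher and 203 to 210 lower probe sets, and 5 and 20 to 22 agreed genes. The share of lower calls was 76.9%, and 67.7% with centring on the 75th percentile, which moved the median of all probe sets to 0.10, 74.2% after a second quantile normalization and 76.8% after loess on mean level, whose list counts were added after seeing the data. Of 80 called probe sets of named genes, 76, 76 and 74 were still called under centring, quantile normalization and loess; those lost were of DNAJB1, FAS, NFKB2 and PSPH under centring, of DNAJB1, DUSP4 and HLA-DQB1 under quantile normalization, and of ALDH7A1, CD79B, DNAJB1, DUSP4, HLA-DQB1 and NFKB2 under loess.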
